A study of Mus musculus with 12 samples.

Results

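Proinflammatory cytokines, the inducible nitric oxide synthase and costimulatory ligands were followed across the arrays of peritoneal macrophages (PMs). The set held 9 of the 18193 genes measured, chosen by name: *Tnf*, *Il6*, *Ifnb1*, *Il12a*, *Il12b*, *Il23a*, *Nos2*, *Cd80* and *Cd86*. RNA of PMs was hybridized to 12 Affymetrix mouse arrays in 6 groups of 2 arrays. PMs had been transfected with antagomir-21, an oligonucleotide that blocks miR-21 by pairing with it, with a scramble oligonucleotide, or given lipofectamine, the transfection reagent. Each of these 3 transfections was followed by exosomes of sensory neurons, either from neurons overexpressing miR-21 or from neurons with a GFP reporter. The groups were thus antagomir-21 with miR-21 exosomes, antagomir-21 with GFP exosomes, scramble with miR-21 exosomes, scramble with GFP exosomes, lipofectamine with miR-21 exosomes and lipofectamine with GFP exosomes. All 6 groups received exosomes, so none shows PMs without them. The labels give neither strain, sex nor age of the mice. The methods name C57BL/6 mice of both sexes for all studies and do not say which sex gave these PMs. The methods describe the replicates of each condition as collected independently and in triplicate, whereas the labels hold 2 arrays in each group and do not say whether these came from separate mice. The p-values measure the spread between these arrays, and whether that spread is biological or technical is not settled by the labels.

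Macrophages make these products when receptors for microbial or danger signals activate NF-κB and interferon regulatory factors. *Tnf* and *Il6* encode acute cytokines that act on many cells, and *Ifnb1* encodes interferon-β, which acts back on the cell that makes it. The p40 subunit encoded by *Il12b* pairs with p35 (*Il12a*) to form IL-12 and with p19 (*Il23a*) to form IL-23, and both cytokines act on T and NK cells. *Nos2* encodes the enzyme that makes nitric oxide from arginine in activated mouse macrophages. CD80 and CD86 are the surface ligands of CD28 and CTLA-4 on T cells. The agent varied in the study was miR-21, a microRNA that represses transcripts that pair with its seed, and mouse *Il12a* is a known target of it.

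The mature mouse miR-21 is shown because it is both the cargo of the exosomes and the target of the antagomir. Bases 2 to 8, the seed, are in capitals; the sequence is from RefSeq (GRCm38.p6, chr11:86584120-86584141, minus strand).
mmu-miR-21a-5p: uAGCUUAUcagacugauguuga

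Of the 9 members, 6 had a RefSeq promoter entry (7 entries of 300 bases, from 250 before to 50 after the start site). The letters GGGANNNNCC, a form of the NF-κB motif, were found on either strand in 5 of these 7 entries, those of *Tnf*, *Il6*, *Ifnb1*, *Il12a* and *Cd80*, against 20.7% of 32851 entries of all genes. The TATA letters TATAAA were in 3 entries (13.6% of all entries), and GAAANNGAAA, letters of an interferon response element, in 0 (3.44% of all). The windows of *Il6* and *Ifnb1*, the members with the largest SD over the 12 arrays (2.11 and 2.13), are printed with the motif letters in capitals and 20 bases on each side (GRCm38.p6). A match is a description of the letters and not of binding.
*Il6* (chr5:30013050-30013099, plus strand): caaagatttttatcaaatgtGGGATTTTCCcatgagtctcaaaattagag
*Ifnb1* (chr4:88522881-88522930, minus strand): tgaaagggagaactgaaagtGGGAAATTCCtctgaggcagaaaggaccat

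Most members were read dimly, with *Cd86* and to a lesser degree *Cd80* brighter than the rest. Values are log2 signals of 1 probe set per gene, the one with the highest mean over the 12 arrays. The means of 39 olfactory receptor genes, a class mostly silent outside olfactory tissue, ran between 4.77 and 8.55, and 8 of the 9 members had a mean inside that range. The mean of *Ifnb1* was 5.56 (percentile 3.9 of all genes), that of *Il23a* 6.48 (percentile 17.0), that of *Il6* 6.74 (percentile 22.6) and that of *Nos2* 7.03 (percentile 29.6). *Tnf* (7.64), *Il12a* (7.75) and *Il12b* (7.80) also lay below the median gene at 7.91. *Cd80* at 8.40 (percentile 60.5) was above the median gene and, within the olfactory receptor range, above the 95th percentile of those genes (8.27), and *Cd86* at 10.28 (percentile 86.9) was above every olfactory receptor gene on 10 of 12 arrays. Probe sets differ in how strongly they bind, so these ranks describe signals and not transcript numbers. Macrophage markers were bright on the same arrays: 10 of 10 lay above the median gene and 8 above all olfactory receptor means, with *Csf1r* at 16.43 ± 0.67 and *Adgre1*, which encodes F4/80, at 12.87 ± 0.64 (SD, n = 12 arrays).

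**Figure D1:**
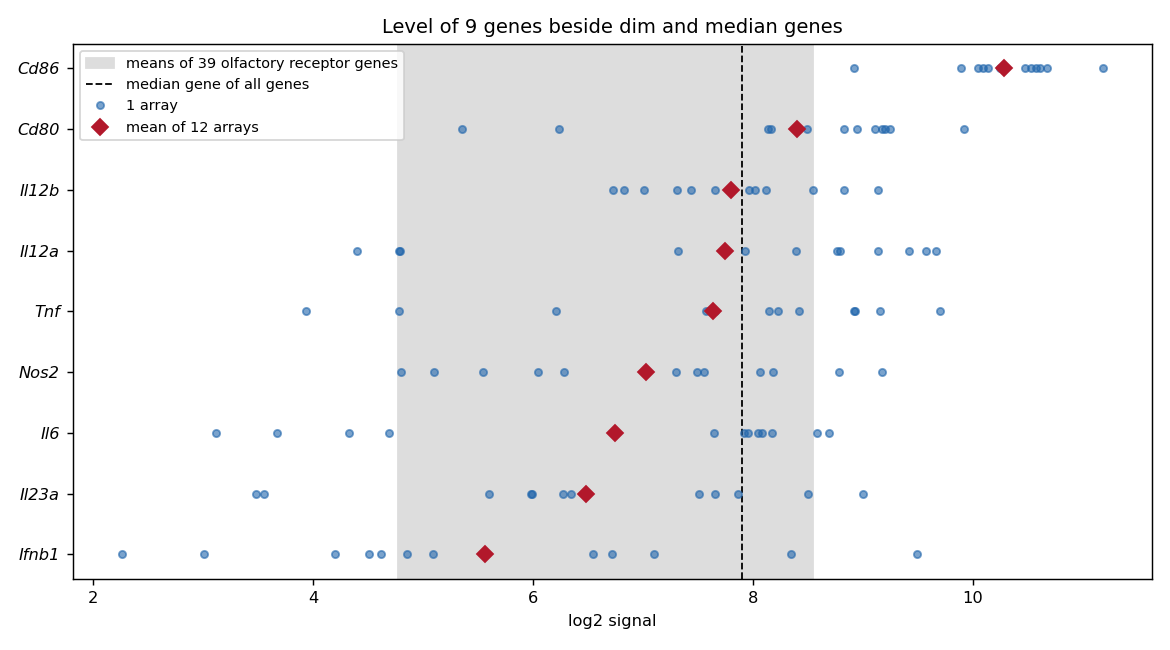
Log2 signal of each member on every array (blue points) and its mean over 12 arrays (red diamonds), with the range of the means of 39 olfactory receptor genes in gray and the median gene as a dashed line at 7.91. The diamonds of 8 members lie inside the gray range, and that of *Cd86* lies to the right of it at 10.28.

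*Tnf* (probe set 1419607_at, gene ID 21926) was highest in scramble-transfected PMs by group mean, although single arrays of other groups reached the same level. Its log2 signal was 8.92 and 4.78 in antagomir-21 with miR-21 exosomes, 8.23 and 6.21 in antagomir-21 with GFP exosomes, 8.93 and 9.16 in scramble with miR-21 exosomes, 8.42 and 8.15 in scramble with GFP exosomes, 9.70 and 3.94 in lipofectamine with miR-21 exosomes, and 7.58 and 7.66 in lipofectamine with GFP exosomes. The lowest and the highest *Tnf* signal of all arrays belonged to the same group, lipofectamine with miR-21 exosomes. The scramble groups and lipofectamine with GFP exosomes had closely spaced arrays (SD 0.16, 0.19 and 0.06), whereas the other groups spanned more.

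*Il6* (1450297_at, gene ID 16193) was read at either of 2 levels. By array it was at 3.67 and 8.09 in antagomir-21 with miR-21 exosomes, 8.05 and 7.92 in antagomir-21 with GFP exosomes, 8.18 and 8.69 in scramble with miR-21 exosomes, 7.65 and 3.11 in scramble with GFP exosomes, 4.69 and 4.32 in lipofectamine with miR-21 exosomes, and 8.59 and 7.95 in lipofectamine with GFP exosomes. On 4 arrays *Il6* was at or below 4.69 and on the other 8 at or above 7.65, a gap of 2.96 with no array inside it. Both low levels and high levels occurred within antagomir-21 with miR-21 exosomes and within scramble with GFP exosomes.

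*Ifnb1* (1422305_at, gene ID 15977) was the dimmest member and had the largest SD over the 12 arrays (2.13). Its log2 signal was 6.72 and 5.09 in antagomir-21 with miR-21 exosomes, 4.62 and 2.26 in antagomir-21 with GFP exosomes, 8.35 and 6.54 in scramble with miR-21 exosomes, 4.85 and 3.01 in scramble with GFP exosomes, 9.49 and 4.51 in lipofectamine with miR-21 exosomes, and 7.10 and 4.20 in lipofectamine with GFP exosomes. After antagomir-21 and after scramble, both arrays with miR-21 exosomes lay above both with GFP exosomes. After lipofectamine the arrays overlapped. Of the 9 members, 2 had no overlap between exosomes after antagomir-21 and 4 after scramble. The share of all genes was not counted for these exosome comparisons, so whether such counts are usual there is not known. Antagomir-21 against scramble also set 2 arrays against 2. There the share of all genes without overlap was 35.8% with GFP exosomes and 26.2% with miR-21 exosomes.

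**Figure D2:**
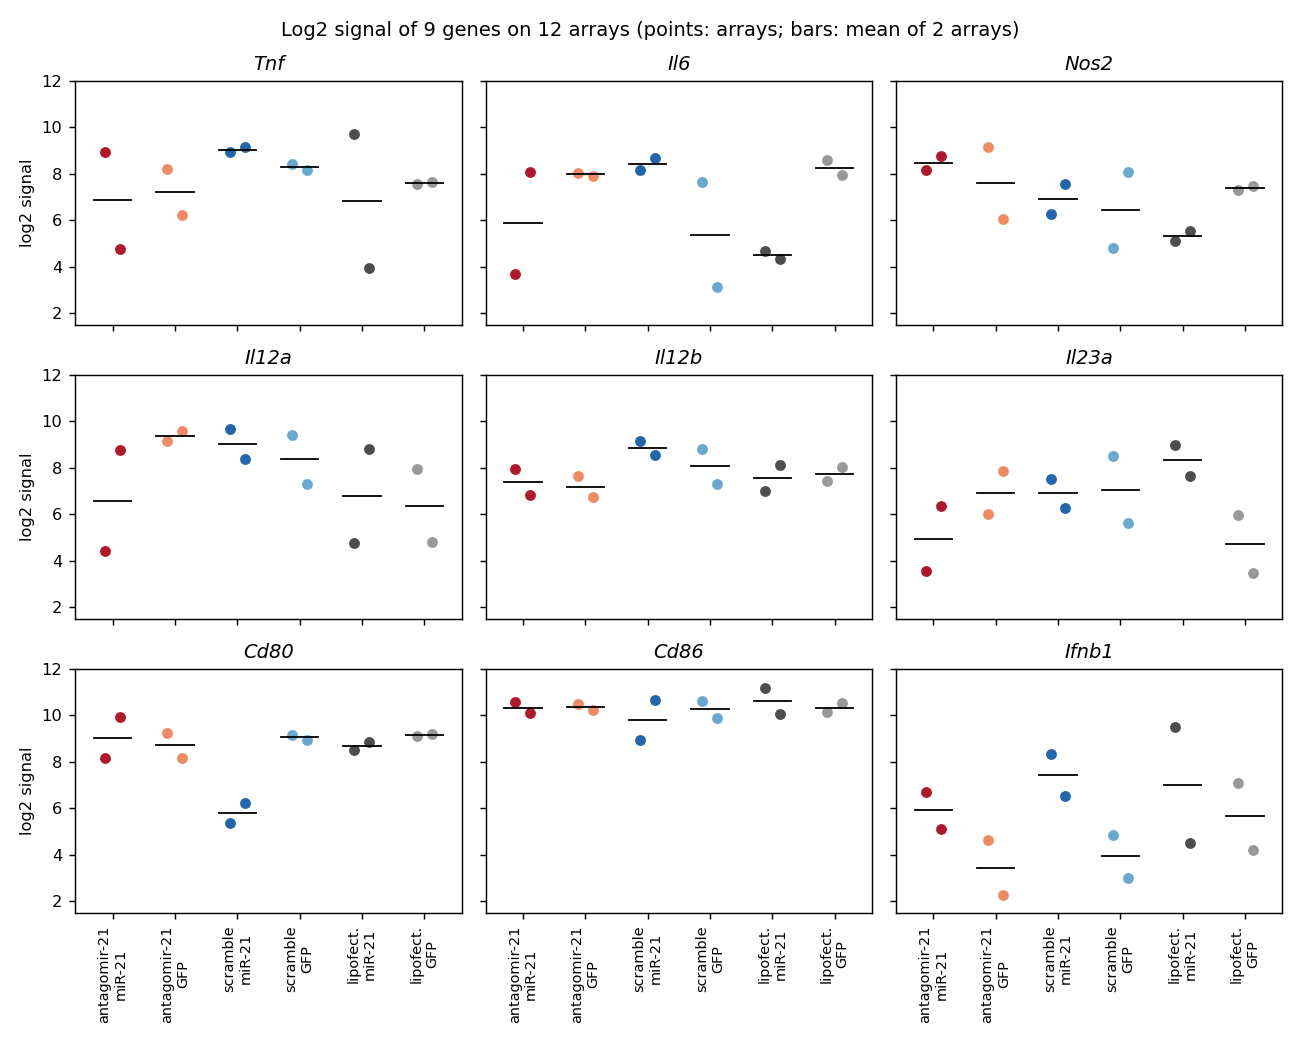
Log2 signal of the 9 members by group, antagomir-21, scramble and lipofectamine each with miR-21 or GFP exosomes. Points are arrays and bars the mean of 2 arrays. The arrays of a group often lie several log2 units apart, as for *Tnf* in lipofectamine with miR-21 exosomes (9.70 and 3.94), and *Cd80* in scramble with miR-21 exosomes (5.36 and 6.24) lies below all other groups.

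Among the genes of the IL-12 family, *Il12a* (1425454_a_at, gene ID 16159) encodes p35. By array it was at 4.39 and 8.77 in antagomir-21 with miR-21 exosomes, 9.14 and 9.58 in antagomir-21 with GFP exosomes, 9.66 and 8.40 in scramble with miR-21 exosomes, 9.42 and 7.32 in scramble with GFP exosomes, 4.78 and 8.79 in lipofectamine with miR-21 exosomes, and 7.93 and 4.79 in lipofectamine with GFP exosomes. Of the 12 arrays, 3 were at or below 4.79 and 9 at or above 7.32. The low arrays came from 3 different groups, each of which also held a high array.

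*Il12b* (1419530_at, gene ID 16160), which encodes p40, had the least spread of the cytokines (SD 0.78 over the 12 arrays). The arrays gave 7.97 and 6.83 in antagomir-21 with miR-21 exosomes, 7.66 and 6.73 in antagomir-21 with GFP exosomes, 9.14 and 8.55 in scramble with miR-21 exosomes, 8.83 and 7.31 in scramble with GFP exosomes, 7.01 and 8.12 in lipofectamine with miR-21 exosomes, and 7.44 and 8.02 in lipofectamine with GFP exosomes. The arrays of scramble with miR-21 exosomes were above those of the other groups except 1 array of scramble with GFP exosomes. A second *Il12b* probe set (1449497_at) had a mean of 5.62 and did not follow the first (Pearson r = −0.49 across the 12 arrays), and there scramble with miR-21 exosomes was at 4.66 to 5.76, inside the range of the other arrays.

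*Il23a* (1419529_at, gene ID 83430), which encodes p19, was at 3.56 and 6.35 in antagomir-21 with miR-21 exosomes, 6.0 and 7.87 in antagomir-21 with GFP exosomes, 7.51 and 6.28 in scramble with miR-21 exosomes, 8.50 and 5.60 in scramble with GFP exosomes, 9.0 and 7.66 in lipofectamine with miR-21 exosomes, and 5.98 and 3.48 in lipofectamine with GFP exosomes. Its highest and lowest group means were both found after lipofectamine. The partners did not share an order of groups: by mean, *Il12a* was highest in antagomir-21 with GFP exosomes, *Il12b* in scramble with miR-21 exosomes and *Il23a* in lipofectamine with miR-21 exosomes.

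*Nos2* (1420393_at, gene ID 18126) had its highest group mean in antagomir-21 with miR-21 exosomes and its lowest in lipofectamine with miR-21 exosomes. By array its log2 signal was 8.18 and 8.78 in antagomir-21 with miR-21 exosomes, 9.17 and 6.04 in antagomir-21 with GFP exosomes, 6.28 and 7.56 in scramble with miR-21 exosomes, 4.80 and 8.07 in scramble with GFP exosomes, 5.10 and 5.55 in lipofectamine with miR-21 exosomes, and 7.30 and 7.49 in lipofectamine with GFP exosomes. Neither the miR-21 nor the GFP exosomes had the higher *Nos2* arrays after every transfection.

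Of the costimulatory ligands, *Cd86* (1420404_at, gene ID 12524) was at a like level on nearly every array. The arrays gave 10.57 and 10.09 in antagomir-21 with miR-21 exosomes, 10.48 and 10.25 in antagomir-21 with GFP exosomes, 8.92 and 10.67 in scramble with miR-21 exosomes, 10.62 and 9.90 in scramble with GFP exosomes, 11.19 and 10.05 in lipofectamine with miR-21 exosomes, and 10.14 and 10.53 in lipofectamine with GFP exosomes. Apart from 1 array of scramble with miR-21 exosomes, all arrays lay between 9.90 and 11.19. A second *Cd86* probe set (1449858_at) was dimmer (mean 9.08) and followed the first with a Pearson r of 0.63 across the 12 arrays. That set was less even, between 8.21 and 10.52. It was at 10.52 and 8.25 in antagomir-21 with miR-21 exosomes and 10.21 and 8.54 in lipofectamine with miR-21 exosomes.

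*Cd80* (1432826_a_at, gene ID 12519) was the 1 member whose group means differed more than the arrays within groups (SD of group means 1.29, SD within groups 0.66). Its log2 signal was 8.14 and 9.93 in antagomir-21 with miR-21 exosomes, 9.25 and 8.17 in antagomir-21 with GFP exosomes, 5.36 and 6.24 in scramble with miR-21 exosomes, 9.17 and 8.95 in scramble with GFP exosomes, 8.49 and 8.83 in lipofectamine with miR-21 exosomes, and 9.11 and 9.20 in lipofectamine with GFP exosomes. Both arrays of scramble with miR-21 exosomes were thus lower than all 10 others; in 15.0% of all genes both arrays of some group lay below or above all others. In the other 8 members the SD of the group means was below the SD within groups, as it was in 83.6% of all genes.

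The other *Cd80* probe sets did not all show this. With 1427717_at (mean 7.70), scramble with miR-21 exosomes was at 6.45 and 6.47, below 9 of the 10 other arrays. With 1451950_a_at (mean 7.24), it was at 4.26 and 6.11, and 7 of the 10 other arrays were above both. With the dimmest set, 1454372_at (mean 5.81), scramble with miR-21 exosomes was at 8.81 and 9.16, above all 10 other arrays, which ran between 2.87 and 7.37. That set ran against the chosen one (Pearson r = −0.62 across the 12 arrays), while the other sets had an r of 0.64 and 0.74 with it. Which transcript each set reads was not tested.

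**Figure D3:**
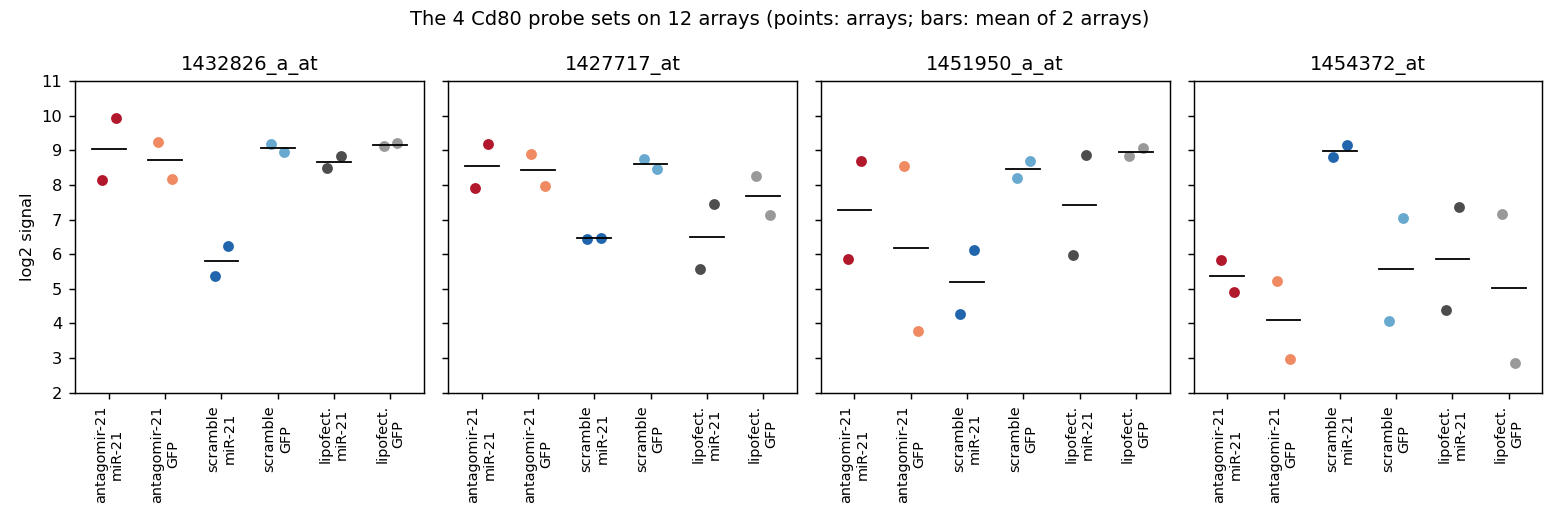
Log2 signal of the 4 *Cd80* probe sets by group, ordered left to right by mean signal. Points are arrays and bars the mean of 2 arrays. Scramble with miR-21 exosomes has the lowest arrays with 1432826_a_at (5.36 and 6.24) and the highest with 1454372_at (8.81 and 9.16).

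For each member the 6 group means were ordered and neighbors in the order compared. Of 45 such pairs of neighboring groups, 42 had overlapping arrays and 3 did not, against 11.4% of the pairs without overlap when the groups of every gene were ordered in the same way. The exceptions were *Tnf*, for which scramble with miR-21 exosomes stood above scramble with GFP exosomes, and scramble with GFP exosomes above lipofectamine with GFP exosomes, and *Cd80*, for which lipofectamine with miR-21 exosomes stood above scramble with miR-21 exosomes. No member passed limma's F test for any difference among the 6 groups at an adjusted p under 0.05. With the mean of probe sets it called 0 of 9 members at an unadjusted p under 0.05. With 1 probe set per gene it called 1 of 9 at that threshold, *Cd80* (adjusted p = 0.768 from limma), against 5.96% of all genes. An F test without limma's shared spread also called *Cd80*, and limma's call was lost in 4 of the 12 fits that each left out 1 array.

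Antagomir-21 was first compared with scramble over both exosomes, 4 arrays against 4, to ask whether blocking miR-21 goes with lower inflammatory transcripts. At an adjusted p under 0.05 limma called 0 of 9 members and 0% of all genes, here and in each comparison below. At an unadjusted p under 0.05 it called 0 of 9 members against 5.16% of all genes (1.68% higher, 3.48% lower), and an unpaired test on these arrays also called 0. With quantile-normalized values it called 1 of 9, *Cd80*, at a log2 fold change of 1.53, and 902 of 18193 genes. With centred medians it called 1 of 9, *Cd80*, at 1.59, and 909 of 18193 genes. With genes above the median signal alone, 2 members were tested and it called 1, *Cd80*, at 1.44, and 294 of 9096 genes. The split over all genes was 306 higher and 633 lower, or 460 and 442 with quantile-normalized values and 394 and 515 with centred medians. *Tnf* averaged 7.04 with antagomir-21 and 8.66 with scramble (log2 fold change −1.63, SE 1.27, 95% confidence interval −4.46 to 1.20, adjusted p = 1.0 from limma). *Il6* averaged 6.93 with antagomir-21 and 6.91 with scramble (log2 fold change 0.02, SE 1.14, interval −2.50 to 2.55), and this difference was −0.038 after quantile normalization. *Nos2* averaged 8.05 with antagomir-21 and 6.68 with scramble (log2 fold change 1.37, SE 0.92, interval −0.68 to 3.41). The interval includes 0 for each of these genes.

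Fold changes of the remaining members in this comparison were added after their values were seen. *Cd80* averaged 8.87 with antagomir-21 and 7.43 with scramble (log2 fold change 1.44, SE 0.65, adjusted p = 0.960 from limma), and the fold change was −0.06 when the probe sets of *Cd80* were averaged. The log2 fold changes of the other cytokines were −1.16 for *Il12b* (SE 0.67), −1.03 for *Il23a* (SE 1.0), −1.02 for *Ifnb1* (SE 1.21) and −0.73 for *Il12a* (SE 1.24), and that of *Cd86* was 0.32 (SE 0.65). With the mean of its probe sets *Il12b* had a log2 fold change of −0.17. The median log2 fold change of the 9 members was −0.73, and that of all genes −0.004. The arrays of antagomir-21 and scramble overlapped for all 9 members, and they did not for 1.97% of all genes.

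The same comparison was made within each exosome. With GFP exosomes, limma called 0 of 9 members at an unadjusted p under 0.05, against 5.38% of all genes, and the arrays did not overlap for 1 member, *Il6*, and for 35.8% of all genes. With miR-21 exosomes it called 1 of 9, against 5.30% of all genes, and the unpaired test called 0. That member was *Cd80*, at 9.03 ± 1.26 with antagomir-21 and 5.80 ± 0.62 with scramble (SD, n = 2; log2 fold change 3.24, SE 0.92, interval 1.20 to 5.28, adjusted p = 0.631 from limma), and the fold change was 0.95 when its probe sets were averaged. With averaged probe sets limma called 0 of 9 members at this threshold. The arrays did not overlap for 5 of 9 members and for 26.2% of all genes. Of these members *Cd80* and *Nos2* had the higher values with antagomir-21, and *Tnf*, *Il6* and *Il12b* the lower.

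Of 9 lists of cell type markers, 2 had summed linear signals on the arrays with low *Cd80*, those of scramble with miR-21 exosomes, that did not overlap the other arrays. The sum of 6 mast cell markers was 3347 to 3405 there and 1582 to 2749 on the other 10 arrays, and that of 6 mesothelial and epithelial markers was 1542 to 1892 there and 367 to 1484 elsewhere. The sums of the other 7 lists overlapped. Among them, 9 dendritic cell markers were at 2267 to 4370 there and 1620 to 3685 elsewhere, and 5 B cell markers at 5469 to 16616 there and 3674 to 12549 elsewhere. T and NK cell markers were at 603 to 2367 there and 943 to 2493 elsewhere. Neutrophil and eosinophil markers were at 1941 to 3724 there and 2495 to 4695 elsewhere. Sensory neuron markers were at 1287 to 1325 there and 413 to 1757 elsewhere, and markers of Schwann and satellite glia at 2431 to 3391 there and 1652 to 4460 elsewhere. Dendritic and B cells are known to use *Cd80*. For either of their lists, the arrays with low *Cd80* held the highest sum and also a sum inside the range of the other arrays. The sum of 10 macrophage markers, at 161937 to 360837, lay within the 124747 to 431886 of the other arrays. As mean log2 signals, the mast cell and the mesothelial lists overlapped other arrays too. The mast cell mean was 8.27 to 8.87 in scramble with miR-21 exosomes and 7.61 to 8.47 in scramble with GFP exosomes. The mesothelial and epithelial mean was 6.76 to 7.37 and 5.14 to 7.49 in these groups. For single genes, both arrays of some group lay below or above all others in 15.0% of all genes. No value of the markers in the 9 lists was at 0. The part of these markers in the *Cd80* result was not tested, and fewer cells of a type and less RNA per cell cannot be told apart in bulk RNA.

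Exosomes with miR-21 were compared with GFP exosomes over all transfections, 6 arrays against 6, to ask whether neuronal miR-21 goes with a more inflammatory state of PMs. At an unadjusted p under 0.05 limma called 1 of 9 members, against 5.45% of all genes (4.0% higher, 1.45% lower), and so did the unpaired test. The split over all genes was 728 higher and 263 lower, or 546 and 379 with quantile-normalized values and 488 and 446 with centred medians. The member was *Ifnb1*, at a mean of 6.78 with miR-21 and 4.34 with GFP exosomes (log2 fold change 2.44, SE 0.99, interval 0.25 to 4.64, adjusted p = 0.866 from limma). Its difference was above 0 after each transfection, at 2.47 after antagomir-21, 3.51 after scramble and 1.35 after lipofectamine, each with an SE of 1.71, but over all 12 arrays the exosome groups overlapped. Leaving out 1 array at a time kept the fold change between 1.61 and 3.28 and lost the unadjusted call in 6 of 12 fits, and without the first array of lipofectamine with miR-21 exosomes the difference after lipofectamine was −1.14. *Ifnb1* lay below all but 3.9% of genes by mean signal. Among the 4548 genes of lowest mean signal the median SD within groups was 1.78, against 0.71 among the 4549 of highest mean signal.

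None of the other members passed the unadjusted threshold with the values as deposited. *Cd80* did at −1.23 after quantile normalization, where 925 of 18193 genes passed, and at −1.35 with centred medians, where 934 of 18193 passed. It also did at −1.14 when the genes above the median signal were tested alone, with 2 members tested and 312 of 9096 genes passing. *Tnf* averaged 7.57 with miR-21 and 7.71 with GFP exosomes (log2 fold change −0.14, SE 1.04, interval −2.45 to 2.17, adjusted p = 0.989 from limma). *Il6* averaged 6.27 with miR-21 and 7.21 with GFP exosomes (log2 fold change −0.94, SE 0.93, interval −3.0 to 1.12). *Nos2* averaged 6.91 with miR-21 and 7.15 with GFP exosomes (log2 fold change −0.24, SE 0.75, interval −1.91 to 1.43). Of the members whose fold changes were added after their values were seen, *Cd80* had a log2 fold change of −1.14 (SE 0.53; −0.40 when its probe sets were averaged), *Il12a* −0.56 (SE 1.01), *Cd86* −0.07 (SE 0.53), *Il12b* 0.27 (SE 0.55) and *Il23a* 0.48 (SE 0.82). The median of the 9 members was −0.14, and that of all genes −0.02. For *Cd86*, the member read most brightly, the 95% interval was −1.25 to 1.11.

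**Figure D4:**
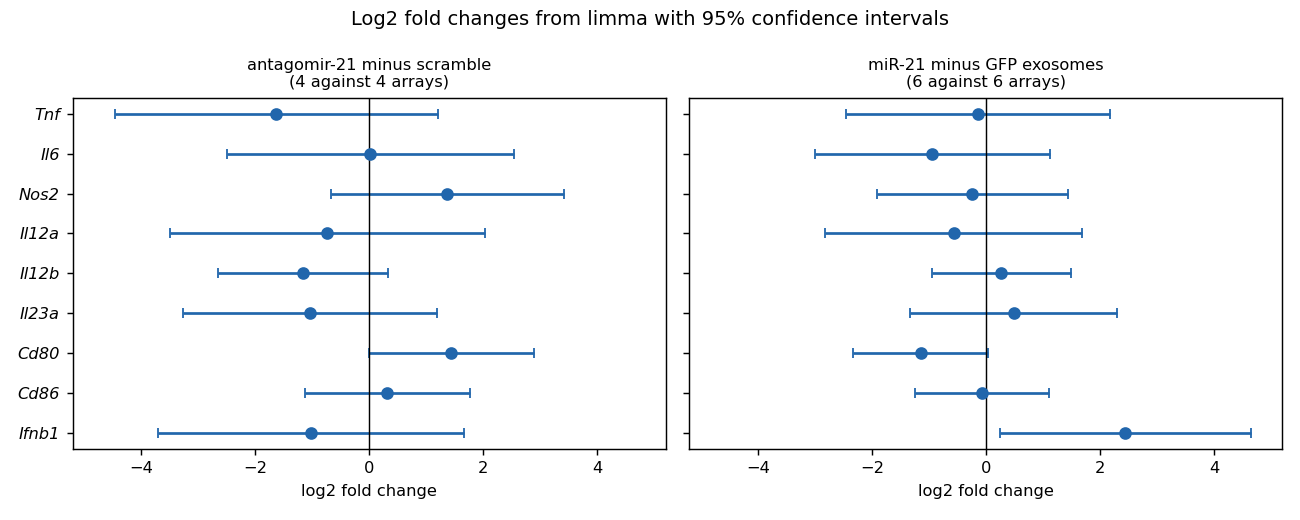
Log2 fold changes of the 9 members from limma, antagomir-21 minus scramble over both exosomes (left) and miR-21 minus GFP exosomes over all transfections (right), with 95% confidence intervals. The interval of *Ifnb1* on the right, 0.25 to 4.64, is the 1 of 18 that does not include 0.

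Within transfections, the exosome comparison gave different members. After antagomir-21 limma called 0 of 9 at an unadjusted p under 0.05, against 5.68% of all genes. After scramble it called 1 of 9, against 5.70% of all genes: *Cd80*, at 5.80 ± 0.62 with miR-21 and 9.06 ± 0.16 with GFP exosomes (SD, n = 2; log2 fold change −3.26, SE 0.92, adjusted p = 0.708 from limma), and the fold change was −1.31 when its probe sets were averaged. This value and that of antagomir-21 against scramble rest on the same arrays of scramble with miR-21 exosomes. With averaged probe sets limma called 0 of 9 members after scramble at an unadjusted p under 0.05. After lipofectamine it called 2 of 9, against 3.84% of all genes: *Il6*, at 4.51 ± 0.26 with miR-21 and 8.27 ± 0.45 with GFP exosomes (SD, n = 2), and *Il23a*, at 8.33 ± 0.95 with miR-21 and 4.73 ± 1.77 with GFP exosomes. The log2 fold change was −3.76 for *Il6* (SE 1.61) and 3.59 for *Il23a* (SE 1.42), each with an adjusted p of 0.999 from limma. The unpaired test called *Il6* and *Nos2* after lipofectamine, and not *Il23a*. When 1 array at a time was left out, limma's unadjusted call was lost in 8 of 12 fits for *Il6* and in 2 for *Il23a*.

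*Il6* had opposite differences between strata. It was at 8.44 ± 0.36 with miR-21 and 5.38 ± 3.21 with GFP exosomes after scramble (SD, n = 2), a log2 difference of 3.06, whereas the difference after lipofectamine was −3.76. After antagomir-21 the difference was −2.11, with overlapping arrays. The value after scramble rested on 1 array and was 0.79 without the second array of scramble with GFP exosomes. The interaction is the antagomir-21 minus scramble difference with miR-21 exosomes less that with GFP exosomes. In it, limma called 2 of 9 members at an unadjusted p under 0.05, against 5.36% of all genes. These were *Cd80* (3.59, SE 1.30, adjusted p = 0.874 from limma) and *Il6* (−5.16, SE 2.27, adjusted p = 0.922 from limma). With averaged probe sets limma called 1 of 9, *Il6*. For *Il6* the interaction was −2.90 without the second array of scramble with GFP exosomes and −2.96 without the first array of antagomir-21 with miR-21 exosomes, and the unadjusted call was lost in 10 of 12 fits that left out 1 array. For *Cd80* it was lost in 3 of 12, and the value was 2.02 when its probe sets were averaged.

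Scramble with miR-21 exosomes was also set against antagomir-21 with GFP exosomes, groups that differ in both the oligonucleotide and the exosomes. Limma called 2 of 9 members at an unadjusted p under 0.05, against 7.17% of all genes, and the unpaired test called 0. With averaged probe sets limma called 1 of 9, *Ifnb1*. Leaving out 1 array at a time lost the call of *Ifnb1* in 5 of 12 fits and that of *Cd80* in 1. *Ifnb1* was at 7.44 ± 1.28 in scramble with miR-21 exosomes and 3.44 ± 1.67 in antagomir-21 with GFP exosomes (SD, n = 2; log2 fold change 4.01, SE 1.71, adjusted p = 0.670 from limma). *Cd80* was at 5.80 ± 0.62 in scramble with miR-21 exosomes and 8.71 ± 0.76 in antagomir-21 with GFP exosomes (SD, n = 2; log2 fold change −2.91, SE 0.92, adjusted p = 0.445 from limma), and the fold change was −0.24 when its probe sets were averaged. In scramble with miR-21 exosomes *Tnf* averaged 9.04, *Il6* 8.44 and *Nos2* 6.92, and in antagomir-21 with GFP exosomes *Tnf* averaged 7.22, *Il6* 7.99 and *Nos2* 7.61.

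Scramble was compared with lipofectamine to see what the oligonucleotide itself went with. Limma called 1 of 9 members at an unadjusted p under 0.05, against 4.14% of all genes, and the unpaired test called 0. *Cd80* averaged 7.43 with scramble and 8.91 with lipofectamine (log2 fold change −1.48, SE 0.65, adjusted p = 1.0 from limma), with overlapping arrays. It was −0.15 when its probe sets were averaged, and the unadjusted call was lost there, after quantile normalization (−1.44) and in 9 of 12 fits that left out 1 array. *Tnf* had a log2 fold change of 1.45 (SE 1.27), *Il6* 0.52 (SE 1.14) and *Nos2* 0.32 (SE 0.92), and the median of the 9 members was 0.44.

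The members did not move together. Among the 36 pairs of members, Pearson's r across the 12 arrays ran between −0.73 (*Nos2* and *Il23a*, Spearman's rho −0.71) and 0.53 (*Tnf* and *Ifnb1*, rho 0.61), with a median of −0.02. The IL-12 subunits *Il12a* and *Il12b* had an r of 0.19, *Il12b* and *Il23a* −0.01, *Tnf* and *Il6* −0.01, and *Cd80* and *Cd86* 0.40. The arrays share groups and a scaling per array, so these values are a description. Among 9096 genes above the median signal, those most like *Tnf* were *Ptpmt1* (r = 0.93), *Cstf1* (r = 0.91) and *Cxcl14* (r = 0.91), those most like *Il6* were *Gm20300* (r = 0.95), *Fam234b* (r = 0.88) and *Trim5* (r = 0.80), and those most like *Nos2* were *S1pr2* (r = 0.86), *Dennd6a* (r = 0.83) and *Polr2j* (r = 0.82), over 12 arrays. For *Cd80* they were *E230032D23Rik* (r = 0.95), *Cux1* and *Nap1l3* (r = 0.94 each), and the closest gene to each of the other 5 members had an r between 0.87 and 0.94.

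Receptors and regulators around the members were mostly above the range of olfactory receptor genes, and other cytokines mostly not. Of 17 cytokine receptors and signal transducers, 11 had a mean above that of all olfactory receptor genes, among them *Tnfrsf1b* (10.76), a receptor for TNF, *Il6ra* (10.11) and *Il6st* (10.23), which form the IL-6 receptor, and *Ifnar2* (10.86), a chain of the interferon-α/β receptor. The same held for 12 of 16 negative regulators, including the NF-κB inhibitor *Nfkbia* (13.90) and *Tnfaip3* (10.36), which encodes A20. Of the other cytokines, 2 of 14 were above that range, *Il18* (10.17) among them, while *Il10* was at 6.98 and *Il1b* at 8.01. Of 11 nitric oxide and arginine genes 7 were above it, with *Arg1*, which encodes arginase, at 11.85 and *Slc7a2*, an arginine transporter, at 9.83, beside *Nos2* at 7.03. Of 11 receptors and relatives of the costimulators 4 were above it, including *Cd40* (9.99) and *Cd274* (10.35), which encodes PD-L1.

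None of these lists held a gene at an adjusted p under 0.05 from limma in antagomir-21 against scramble or in miR-21 against GFP exosomes. In antagomir-21 against scramble, receptors and transducers had a median log2 fold change of 0.04 (10 of 17 above 0, with 0 at an unadjusted p under 0.05), negative regulators 0.14 (12 of 16 above 0, with 0), and the transcription factors of macrophage activation 0.15 (10 of 18 above 0, with 0). Neighboring cytokines had 0.87 (9 of 14 above 0, with 1 higher and 1 lower), nitric oxide and arginine genes 0.0028 (6 of 11 above 0, with 2 lower) and costimulator relatives −0.08 (5 of 11 above 0, with 1 lower). The median of all genes was −0.004, and that of the 9096 genes above the median signal was 0.11. At an unadjusted p under 0.05 limma called 5.16% of all genes (1.68% higher, 3.48% lower).

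With miR-21 against GFP exosomes, receptors and transducers had a median log2 fold change of −0.24 (11 of 17 below 0, with 1 lower at an unadjusted p under 0.05), negative regulators −0.31 (12 of 16 below 0, with 1 lower) and transcription factors −0.27 (13 of 18 below 0, with 1 higher). That lower regulator was *Socs1*, a suppressor of cytokine signaling, at −1.56, and the higher factor was *Junb*, a subunit of AP-1, at 3.24. Neighboring cytokines had a median of 0.28 (9 of 14 above 0, with 1 lower), nitric oxide and arginine genes 0.0087 (6 of 11 above 0, with 0) and costimulator relatives −0.33 (6 of 11 below 0, with 2 higher, of which 1 was *Cd28*, the receptor of CD80 and CD86, at 1.46). The median of all genes was −0.02, and that of the 9096 genes above the median signal was −0.19. Above the median gene lay 12 of 17 receptors and transducers, 13 of 16 negative regulators and 12 of 18 transcription factors. At an unadjusted p under 0.05 limma called 5.45% of all genes (4.0% higher, 1.45% lower).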

How the data were processed

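Deposited values were log2 signals of probe sets. The trimmed mean of the linear values (2% removed at each end) was 496.36 to 498.57 on each of the 12 arrays, as a common scaling of each array would leave it. Array medians ran between 7.92 and 8.58, so the values do not share a distribution, although the methods describe quantile normalization, and neither paper nor labels name the program behind them. The platform annotation gave 1 gene symbol for 34945 of 45037 probe sets, several for 932 and none for 9160. Of the 34945, 34741 were matched by gene ID to RefSeq and took its symbol, whether or not that differed. For each of 18193 genes the probe set of highest mean was used. No further transformation was applied, and the number of arrays limits the precision.

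Tests used R 4.3.3 with limma 3.58.1 (lmFit on 6 group means, eBayes, 2-sided, Benjamini-Hochberg adjustment over 18193 genes) and were tested on simulated data. The members, lists and rules were chosen with earlier results of these data known. Every member is named; of each list at most 4 genes are named for their role. The replicate numbers did not pair arrays (15 correlations of −0.192 to 0.167), so the main fit had no replicate term. Alternatives were quantile normalization, median centring, the mean of probe sets, a filter on dim genes, the compared groups alone, an unpaired test, a replicate block and leaving out each array.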

Additional observations from a re-analysis of the deposited data

Results flagged for a closer look

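For *Il6*, the difference between miR-21 and GFP exosomes ran in opposite directions in 2 transfections, without overlap of arrays. It was −3.76 on the log2 scale after lipofectamine and 3.06 after scramble, and this difference between transfections was not tested. After antagomir-21 it was −2.11, with overlapping arrays. After lipofectamine and after scramble, the arrays did not overlap for 4 of 9 members each. The share of all genes was not counted for these exosome comparisons, so whether such counts are usual there is not known. Antagomir-21 against scramble also set 2 arrays against 2. There the share of all genes without overlap was 35.8% with GFP exosomes and 26.2% with miR-21 exosomes. The value after scramble was 0.79 without the second array of scramble with GFP exosomes. The difference between antagomir-21 and scramble was 2.61 with GFP exosomes and −2.56 with miR-21 exosomes, and its test is the interaction of antagomir-21 and exosomes, at −5.16 (adjusted p = 0.922 from limma) and −2.90 or −2.96 without 1 of its low arrays, the second of scramble with GFP exosomes or the first of antagomir-21 with miR-21 exosomes. *Il6* was read at 4.69 or less on 4 arrays and 7.65 or more on 8. For *Cd80*, the interaction was 3.59 (adjusted p = 0.874 from limma), and it was 2.02 when the probe sets were averaged. Groups of 2 arrays are too small for the search for outlying samples.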

How the results depend on the processing

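Limma called 0 of 9 members at an adjusted p under 0.05 in each of the 11 comparisons under all 19 alternatives, where they applied, including the fit with a replicate block (0 members). The unpaired test called 2, 1 and 1 other genes in antagomir-21 against scramble with miR-21 exosomes, in miR-21 against GFP exosomes after scramble and among the 6 groups. Of 519 alternative values of 29 fold changes, 495 kept their direction and 24, in 11 fold changes, did not; the lowest adjusted p was 0.325. In antagomir-21 against scramble, *Il6* (0.02) was −0.038 after quantile normalization and *Cd80* (1.44) −0.061 with the mean of probe sets. Without 1 array *Il6* ran between −1.11 and 1.16, *Il12a* between −1.82 and 0.36 and *Cd86* between −0.12 and 0.76. In miR-21 against GFP exosomes, the mean of probe sets gave −0.22 for *Il12b* (0.27) and 0.14 for *Cd86* (−0.07). There, without 1 array, *Tnf* ran between −1.10 and 0.82, *Nos2* between −0.78 and 0.31, *Il12a* between −1.29 and 0.17 and *Cd86* between −0.36 and 0.225, while *Ifnb1* stayed between 1.61 and 3.28. In scramble against lipofectamine, without 1 array, *Il6* ran between −0.61 and 1.65 and *Nos2* between −0.50 and 1.14. The replicate block left each fold change as it was, since all groups hold both numbers. At an unadjusted p under 0.05 the fit with the block called *Cd80* in antagomir-21 against scramble with miR-21 exosomes (935 of 18193 genes). Between exosomes it called *Ifnb1* over all transfections (988 genes) and after antagomir-21 (1046), and *Il23a* after lipofectamine (717). It called *Cd80* and *Ifnb1* after scramble (1036) and among the 6 groups (1042). Both were also called in scramble with miR-21 against antagomir-21 with GFP exosomes (1295). The interaction called *Cd80* (970). In scramble against lipofectamine it called 0 members (743), and likewise in antagomir-21 against scramble over both exosomes (935) and with GFP exosomes (967). *Ifnb1* was higher on the array numbered 1 in 6 of 6 groups; 2.31% of all genes had 1 direction in all groups. Median centring put the median of all genes at 0.15 in antagomir-21 against scramble and −0.23 in miR-21 against GFP exosomes (main values −0.004 and −0.02) and shifted members by the same amount. All genes at an unadjusted p under 0.05 numbered 939 in antagomir-21 against scramble, 597 by the unpaired test and 294 of 9096 with the filter on dim genes, and 991 and 312 of 9096 in miR-21 against GFP exosomes. Without 1 array they numbered 721 to 1538 and 690 to 1600. The cause of these changes was not tested. Signal over background is not known from the deposited values, and 8 of 9 members lie in the range of olfactory receptor genes, which reaches past the median gene.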

Other observations

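A break between 2 levels was seen in 3 members. The widest gap between neighboring arrays was over 2 log2 units for *Il6* (2.96), *Il12a* (2.53) and *Il23a* (2.05), 3 of 9 members, against 22.1% of all genes, 14.6% of the 4548 genes of lowest mean signal, where *Il6* and *Il23a* lie, and 23.2% of the 4548 genes whose mean lay between 6.84 and 7.91, where *Il12a* lies. Below the gap lay 4 arrays for *Il6*, 3 for *Il12a* and 2 for *Il23a*.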
